A study of Bos taurus with 6 samples.

Results

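The miRNAs described here are bta-miR-191, both arms of bta-miR-425 and bta-miR-423, bta-miR-186, bta-miR-320a, bta-miR-320b and bta-miR-484 in granulosa cells, the somatic cells that surround the oocyte inside the ovarian follicle. They were taken from the mature names in the count files by these numbers, with any letter or arm, which gave 9 of the 755 mature bovine miRNA names. Of these 9, 8 had reads and entered the test of 353 detected miRNAs, and bta-miR-320b had no read in any library. The study sequenced small RNA of granulosa cells from healthy young Simmental heifers whose estrous cycles had been synchronized with prostaglandin and GnRH analogues and who were slaughtered at day 19. Follicles were sorted by outer diameter into preovulatory dominant follicles and smaller anovulatory subordinate follicles of the same heifers, so the groups shared animals, day and hormone treatment and differed in follicle type. RNA was pooled into 3 libraries per follicle type. Far fewer preovulatory dominant than subordinate follicles were collected, so a library of the former may stand for very few follicles, and the p-values measure the spread between such pools.

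MiRNAs are cut from hairpin precursors and guide Argonaute proteins to messenger RNAs. In the usual route, Drosha releases the hairpin in the nucleus, exportin 5 carries it to the cytoplasm and Dicer cuts it to a duplex of a 5p and a 3p arm, one of which is mostly kept. MiR-191, miR-425, miR-423 and miR-186 follow this route and are often used to normalize miRNA measurements because they are found at even levels in many tissues. MiR-320 and miR-484 are exceptions: their hairpins are made directly by transcription, carry a cap at the 5′ end, skip the Drosha step and leave the nucleus through exportin 1, but still need Dicer. In the RefSeq gene table of the assembly ARS-UCD2.0, all 8 precursors of the listed miRNAs were found by symbol. MIR191 and MIR425 were neighbours between NDUFAF3 and DALRD3, MIR423 lay within NSRP1, which encodes a splicing regulator, and MIR186 lay within ZRANB2, another splicing factor gene. MIR484 lay between MARF1 and NDE1, and MIR320A-1 lay next to POLR3D, a gene for a subunit of RNA polymerase III. MIR320A-2 lay within RNF180.

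Counting each mature name once, there were 190385 to 311842 reads per library in preovulatory dominant and 306932 to 364125 in subordinate follicles. Levels are given in CPM, the reads of a miRNA rescaled to a common library size with edgeR's TMM factors, and 3 reads, the least that was told from 0, were worth 8.86 to 13.9 CPM. This limit covers counting error only. The 5 granulosa-associated miRNAs on a fixed list were bta-miR-202, bta-miR-21-5p, bta-miR-132, bta-miR-212 and bta-miR-22-3p, and all 5 had reads in every library. Their summed level was 111735 to 124450 CPM in preovulatory dominant and 26524 to 41281 CPM in subordinate follicles. All 5 were called higher in preovulatory dominant follicles by the thresholds given below, as were 11.9% of all tested miRNAs. The paper had already described these miRNAs as higher in preovulatory dominant follicles. The list was chosen with earlier results of these data known, so these calls are no independent result. The sum does not measure the share of granulosa cells, which was not tested. The list for red blood cells (bta-miR-451, bta-miR-144 and bta-miR-486) summed to 13090, 8246 and 1048 CPM in preovulatory dominant replicates 1, 2 and 3 and to 808 to 1530 CPM in subordinate follicles, with bta-miR-451 and bta-miR-486 called higher in preovulatory dominant follicles and no read of bta-miR-144 in some libraries. The leukocyte list summed to 1609 to 2403 and 854 to 2029 CPM, the endothelial list to 73.2 to 293 and 354 to 540 CPM and the stromal and theca list to 17601 to 27821 and 21063 to 35748 CPM, respectively, with 1 of the 5 stromal and theca miRNAs called lower and none called in the leukocyte and endothelial lists. The part of these cells in the values below was not tested, and in bulk RNA fewer cells of a type and less RNA per cell cannot be told apart.

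The levels of the 8 miRNAs covered a wide range. Bta-miR-191 was the most abundant with a mean of 27894 CPM over the 6 libraries, between 2.22 and 3.33% of the reads of a library, followed by bta-miR-186 with 20475 CPM. Bta-miR-423-5p had 2941 CPM and bta-miR-423-3p 2014 CPM, while bta-miR-320a, bta-miR-425-5p and bta-miR-484 had 669, 523 and 467 CPM. Bta-miR-425-3p was last with 31.3 CPM, a mean of 9.33 reads. A read covers a whole mature miRNA, and these are all of similar length, so CPM can be set side by side, although adapters join to different miRNAs with different ease. Most neighbours in this order kept it in all 6 libraries. The exceptions were bta-miR-320a, which had more reads than bta-miR-425-5p in 4 of 6 libraries, and bta-miR-425-5p, which had more reads than bta-miR-484 in 3 of 6. The log2 read ratio of these neighbours was 0.35 ± 0.68 and 0.19 ± 0.71 (SD, n = 6), so their order lay within the spread.

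**Figure D1:**
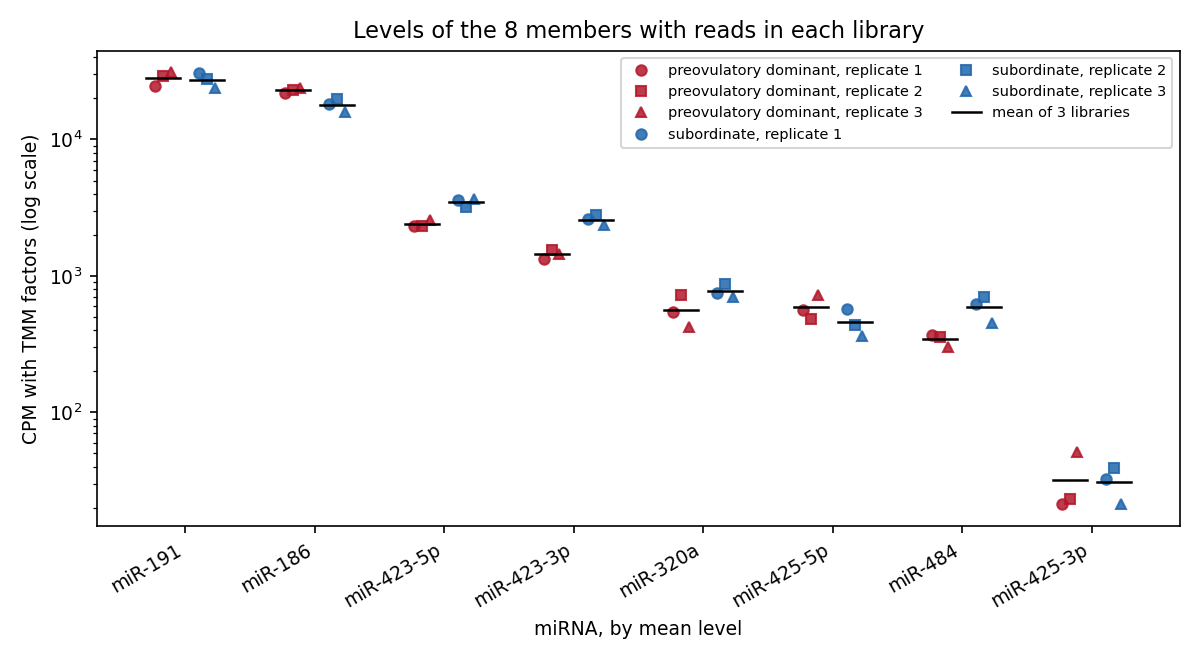
Level of each of the 8 miRNAs with reads in each library, in CPM with TMM factors on a log axis, with red for preovulatory dominant and blue for subordinate follicles, the marker shape for the replicate and a black line for the mean of 3 libraries. The groups overlap for bta-miR-191 and both arms of bta-miR-425, while bta-miR-423-5p, bta-miR-423-3p and bta-miR-484 sit lower and bta-miR-186 sits higher in every preovulatory dominant library.

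A reference miRNA should have the same level in both follicle types, and this was asked of each member with edgeR's quasi-likelihood test over all 353 miRNAs. None of the 8 was called by the study's thresholds, which ask for a log2 fold change beyond 1 in either direction, an unadjusted p no larger than 0.05 and an adjusted p (the false discovery rate) no larger than 0.1. The same thresholds called 76 of all 353 miRNAs (21.5%), 42 higher (11.9%) and 34 lower (9.63%) in preovulatory dominant follicles. DESeq2 also called none of the 8. At an unadjusted p under 0.05, edgeR gave 4 of the 8 members and 118 of all 353 miRNAs. With the false discovery rate alone, 3 members passed, bta-miR-423-3p, bta-miR-423-5p and bta-miR-484, all lower in preovulatory dominant follicles, where 14.2% of all tested miRNAs were lower and 16.1% higher by this rule. Both shares include many miRNAs with few reads, while these 3 members averaged 100 reads or more. Of the 109 tested miRNAs of that depth, 26.6% passed the full thresholds in either direction. At least that share therefore passed the false discovery rate alone. In CPM the groups did not overlap for 4 of the 8 members, against 36.8% of all tested miRNAs. All 4 are among the 7 members that averaged 100 reads or more, and of the 109 tested miRNAs of that depth 58.7% did not overlap.

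A missed threshold does not show equal levels, so the 95% interval of each log2 fold change was set against the bounds of -1 and 1. The interval lay wholly inside for 4 of the 8, bta-miR-191, bta-miR-186, bta-miR-423-5p and bta-miR-425-5p, and for 15.0% of all tested miRNAs. Many of those have few reads and wide intervals. Among the 109 tested miRNAs that averaged 100 reads or more, which include 7 members, the share was 44.0%. Of these 109, 26.6% were called. The count of 4 members fell to 2 without subordinate replicate 1 and also without subordinate replicate 2.

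**Figure D2:**
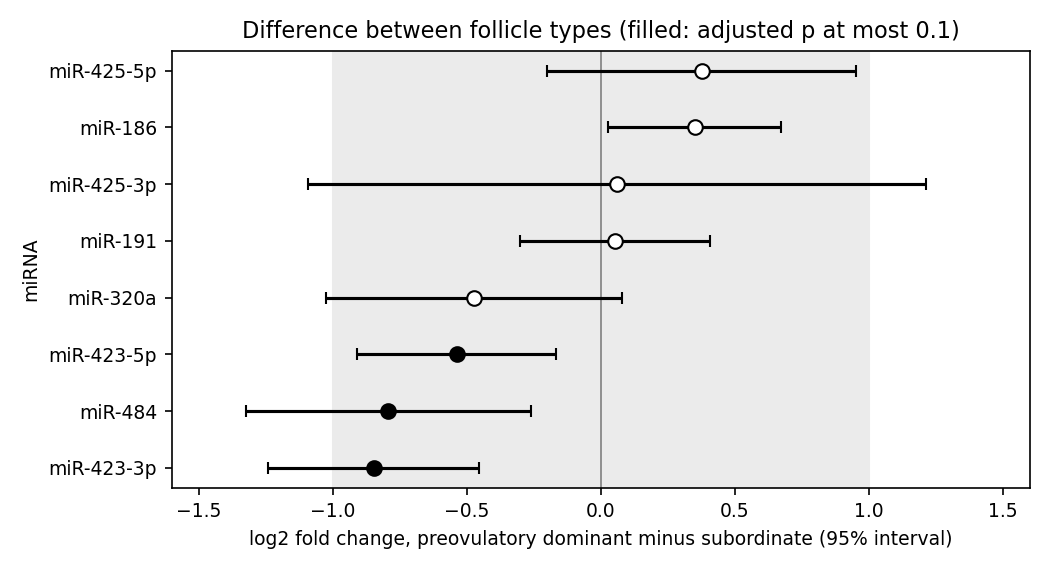
Log2 fold change of preovulatory dominant over subordinate follicles for the 8 miRNAs, with bars for the 95% interval from edgeR's fit, filled points for an adjusted p of at most 0.1 and the grey band for the range from -1 to 1. Only bta-miR-423-3p, bta-miR-484 and bta-miR-423-5p have filled points, at -0.85, -0.79 and -0.54, and the intervals of bta-miR-191, bta-miR-186, bta-miR-425-5p and bta-miR-423-5p stay inside the band.

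With TMM factors, bta-miR-191 had the closest means of the abundant members. Its reads were 7016, 6338 and 9747 in the preovulatory dominant libraries and 10343, 8543 and 6803 in the subordinate libraries. After scaling these were 24755, 29396 and 31034 CPM against 30541, 27630 and 24005 CPM, so that the groups overlapped fully and each held values near both ends. The means were 28395 ± 3257 and 27392 ± 3275 CPM (SD, n = 3 each). The log2 fold change was 0.05 (standard error 0.16, 95% interval -0.30 to 0.41, edgeR's quasi-likelihood test, adjusted p = 0.826). The interval stayed inside the bounds when any 1 library was left out, while the sign did not hold: without preovulatory dominant replicate 3 or without subordinate replicate 3 the value was -0.034 or -0.035.

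Bta-miR-425-5p, from the hairpin beside that of bta-miR-191, was scarcer and more scattered. Preovulatory dominant libraries held 159, 104 and 229 reads of it, against 193, 135 and 102 in the subordinate libraries, or 561, 482 and 729 CPM against 570, 437 and 360 CPM. Replicate 3 was the highest preovulatory dominant and the lowest subordinate library, and the groups overlapped. This gave a log2 fold change of 0.38 (standard error 0.25, interval -0.20 to 0.95, adjusted p = 0.318). Bta-miR-425-3p, the opposite arm, had 6, 5 and 16 reads against 11, 12 and 6. Its log2 fold change of 0.06 had an interval from -1.09 to 1.21 (adjusted p = 0.926), so a difference as large as the study's threshold was not excluded. Without preovulatory dominant replicate 3, which held the 16 reads, the value was -0.48.

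Both arms of bta-miR-423 had lower levels in preovulatory dominant follicles. Bta-miR-423-3p was read 379, 331 and 454 times in preovulatory dominant libraries, against 884, 870 and 664 times in subordinate libraries. In CPM these were 1337, 1535 and 1446 against 2610, 2814 and 2343. The groups were far apart compared with their spread, with means of 1439 ± 99.1 and 2589 ± 236 CPM (SD, n = 3 each). Their log2 fold change was -0.85 (standard error 0.17, interval -1.24 to -0.45, adjusted p = 0.00881), and the adjusted p stayed at or below 0.0443 when any 1 library was left out.

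Bta-miR-423-5p had 660, 498 and 805 reads against 1229, 981 and 1033, or 2329, 2310 and 2563 CPM against 3629, 3173 and 3645 CPM. The lowest subordinate library was above the highest preovulatory dominant one. It had a log2 fold change of -0.54 (standard error 0.16, interval -0.91 to -0.17, adjusted p = 0.0464). Its adjusted p rose above 0.1 without preovulatory dominant replicate 1 (0.131), preovulatory dominant replicate 2 (0.120) or subordinate replicate 1 (0.169).

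Bta-miR-186 was the only member whose preovulatory dominant libraries were all above the subordinate ones. It had 6241, 4937 and 7518 reads against 6198, 6094 and 4529, which became 22020, 22898 and 23937 CPM against 18302, 19710 and 15981 CPM. The preovulatory dominant libraries lay very close together, with a coefficient of variation of 4.18% against 10.5% in subordinate follicles. Its log2 fold change was 0.35 (standard error 0.14, interval 0.03 to 0.67), with an interval above 0, but it did not pass after adjustment over all 353 miRNAs (edgeR's quasi-likelihood test, adjusted p = 0.113). This adjusted p was 0.228 with the replicate number as a block. With at least 10 reads in at least 3 libraries required, which leaves 202 miRNAs to test, it was 0.0485.

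The members that skip Drosha, bta-miR-320a and bta-miR-484, were both at lower mean levels in preovulatory dominant follicles. Bta-miR-484 was read 105, 77 and 94 times in preovulatory dominant libraries, against 211, 217 and 128 times in subordinate libraries. In CPM the 370, 357 and 299 of preovulatory dominant follicles lay below the 623, 702 and 452 of subordinate follicles, without overlap. The log2 fold change was -0.79 (standard error 0.23, interval -1.32 to -0.26, edgeR's quasi-likelihood test, adjusted p = 0.0417). The adjusted p rose above 0.1 without preovulatory dominant replicate 2 (0.111), subordinate replicate 1 (0.127) or subordinate replicate 2 (0.138).

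Bta-miR-320a had 153, 156 and 132 reads against 254, 271 and 200, and it is listed under 2 precursors with the same counts, so its reads cannot be assigned to either. In CPM the values were 540, 724 and 420 against 750, 876 and 706. Preovulatory dominant replicate 2 reached into the subordinate range, and the log2 fold change of -0.47 (standard error 0.24, interval -1.03 to 0.08, adjusted p = 0.212) did not pass. Without that library it was -0.66 (adjusted p = 0.118). Compared by replicate number, which may not mark libraries of the same heifers, the preovulatory dominant library was the lower one at all 3 numbers. With the replicate number as a block, the log2 fold change was -0.50 with an interval from -0.99 to -0.00063, which excluded 0 and lay inside the bounds, while the adjusted p was 0.153. For bta-miR-320b, 0 reads in each of 6 libraries allow up to 3 counted reads per library. The count files do not show whether reads shared by bta-miR-320a and bta-miR-320b were all counted as bta-miR-320a, so the 0 is a limit on counted reads and the values of bta-miR-320a may hold reads of both.

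The values above depend on how libraries are scaled. By total count, without TMM factors, the median log2 fold change of all tested miRNAs moved up by 0.19, from -0.20 to -0.01. Over the tested miRNAs that averaged 100 reads or more, it moved from 0.0011 with TMM factors to 0.22 by total count. Bta-miR-423-3p then had a log2 fold change of -0.64 (adjusted p = 0.0572), bta-miR-423-5p -0.34 (adjusted p = 0.273), bta-miR-484 -0.58 (adjusted p = 0.183) and bta-miR-186 0.56 (adjusted p = 0.0251). Bta-miR-191 had 0.25 (adjusted p = 0.332). The order of these 4 miRNAs was as before, but bta-miR-186 passed a false discovery rate of 0.1 and bta-miR-423-5p and bta-miR-484 no longer did. Of the calls over all miRNAs, 67.1% were then higher in preovulatory dominant follicles, against 55.3% with TMM factors.

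Evenness across all 6 libraries was described by the standard deviation of log2 CPM, with no test, and its order depended on the scaling. With TMM factors it was 0.16 for bta-miR-191, 0.22 for bta-miR-186, 0.31 for bta-miR-423-5p, 0.35 for bta-miR-425-5p and 0.38 for bta-miR-320a. Bta-miR-423-3p and bta-miR-484 had the widest spread of the 7 members with at least 100 reads, 0.47 and 0.48. Counting error alone would give about 0.02 for bta-miR-191 and bta-miR-186 and 0.13 for bta-miR-484. The median over the 109 miRNAs of this depth was 0.38, and 5 of the 7 members lay below it. In order from the most even of the 109, bta-miR-191 was number 10, bta-miR-186 number 18, bta-miR-423-5p number 35, bta-miR-425-5p number 41, bta-miR-320a number 52, bta-miR-423-3p number 69 and bta-miR-484 number 70. From its lowest to its highest library, bta-miR-191 differed by 1.29-fold, bta-miR-186 by 1.50-fold and bta-miR-484 by 2.33-fold.

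Scaled by total count, the standard deviation of bta-miR-191 was 0.24, over 1.5 times the value with TMM factors, and that of bta-miR-423-5p was 0.23. Bta-miR-423-5p was then number 15 and bta-miR-191 number 20 of the 109, so that the most even member was not the same under both scalings. Bta-miR-186 went to 0.33 (number 37) and bta-miR-425-5p to 0.44 (number 60). The remaining members had smaller values than with TMM factors, 0.35 for bta-miR-320a (number 42), 0.37 for bta-miR-423-3p (number 50) and 0.40 for bta-miR-484 (number 53). The median of the 109 was 0.43, and 6 of the 7 members lay below it.

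The order was also different within follicle types, again with TMM factors. The pooled standard deviation within groups was 0.10 for bta-miR-423-5p and 0.12 for both bta-miR-423-3p and bta-miR-186, less than the 0.17 of bta-miR-191. Bta-miR-423-3p thus moved from number 69 to number 18 of 109 when only the spread inside each follicle type was counted, and bta-miR-423-5p from 35 to 7. Bta-miR-191 went the opposite way, from 10 to 33, since its libraries scattered inside both groups around nearly equal means. Bta-miR-484, bta-miR-320a and bta-miR-425-5p had 0.26, 0.30 and 0.32, above the median of 0.25 for the 109 miRNAs.

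**Figure D3:**
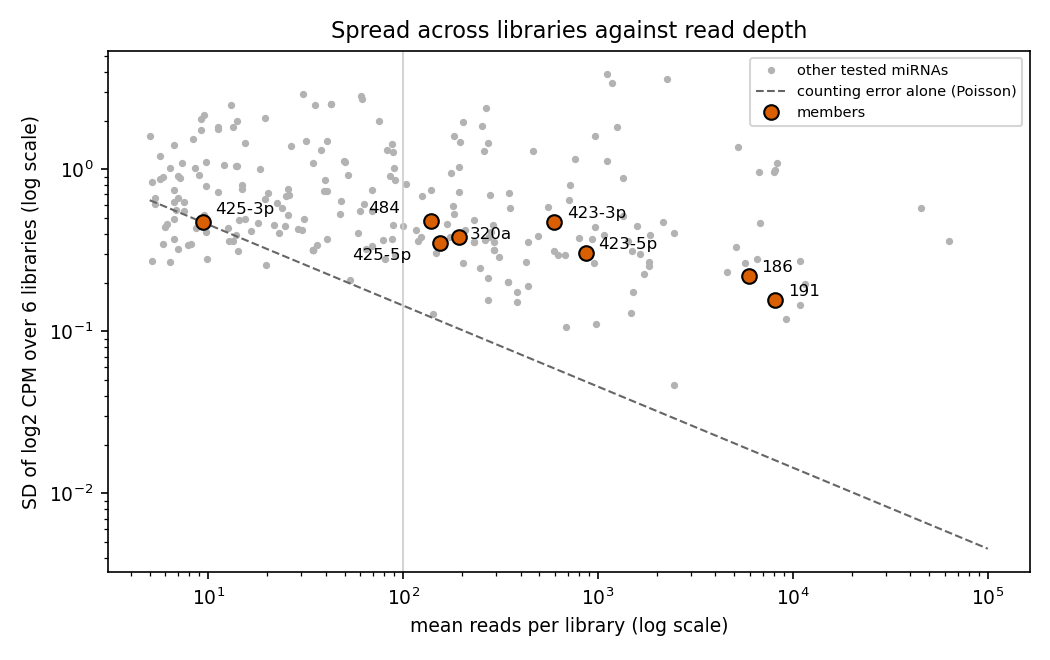
Standard deviation of log2 CPM with TMM factors over the 6 libraries against the mean reads per library, both on log axes, for tested miRNAs with at least 5 reads on average (grey), the 8 members (orange, labelled by number) and the spread that counting error alone would give (dashed line), with a thin line at 100 reads. Bta-miR-191 at 0.16 and bta-miR-186 at 0.22 sit low in the cloud but far above the counting line, and bta-miR-425-3p sits on that line.

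With TMM factors, the 5 most even miRNAs of this depth were not members. Bta-let-7g, a let-7 family miRNA, had a standard deviation of 0.05 with 8474 ± 394 CPM in preovulatory dominant and 8350 ± 138 CPM in subordinate follicles (SD, n = 3 each), a log2 fold change of 0.02 (interval -0.30 to 0.34, edgeR's quasi-likelihood test, adjusted p = 0.919). It was followed by bta-miR-23b-3p (0.11), bta-let-7e (0.11), bta-let-7i (0.12) and bta-miR-27a-3p (0.13). The intervals of all 5 lay inside the bounds. By total count bta-let-7g had 0.18 and was number 5, behind bta-let-7f (0.09), bta-miR-532 (0.11), bta-miR-148a (0.13) and bta-miR-16b (0.16), which were chosen after these values were seen.

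The ratio of 2 miRNAs in the same library needs no scaling, and it was used to see which members moved together. Over the 21 pairs of the 7 members with at least 100 reads, the standard deviation of the log2 read ratio over 6 libraries ran from 0.19 to 0.73, with a median of 0.43. The steadiest pair was bta-miR-423-3p with bta-miR-484 (0.19), then bta-miR-191 with bta-miR-186 (0.20), the 2 arms of bta-miR-423 (0.24) and bta-miR-425-5p with bta-miR-186 (0.24). Bta-miR-320a with bta-miR-484, the Drosha-independent pair, was number 5 (0.27). Bta-miR-191 with its neighbour bta-miR-425-5p was number 6 (0.27). The least steady pair was bta-miR-425-5p with bta-miR-423-3p (0.73).

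After these values were seen, the 7 members were set out as 2 sets, bta-miR-191, bta-miR-425-5p and bta-miR-186 in one and bta-miR-423-5p, bta-miR-423-3p, bta-miR-320a and bta-miR-484 in the other. The 9 pairs inside a set had standard deviations of 0.19 to 0.34 and the 12 pairs across the sets 0.36 to 0.73. The follicle types did not overlap in the ratio for 10 of the 12 pairs across and for 1 of the 9 pairs inside. Since the sets were formed from the ratios, these counts are a description without a test. The mean standard deviation of a member with the other 6, the measure M of the geNorm procedure for reference genes, was smallest for bta-miR-191 (0.38) and bta-miR-423-5p (0.39) and largest for bta-miR-425-5p (0.53).

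**Figure D4:**
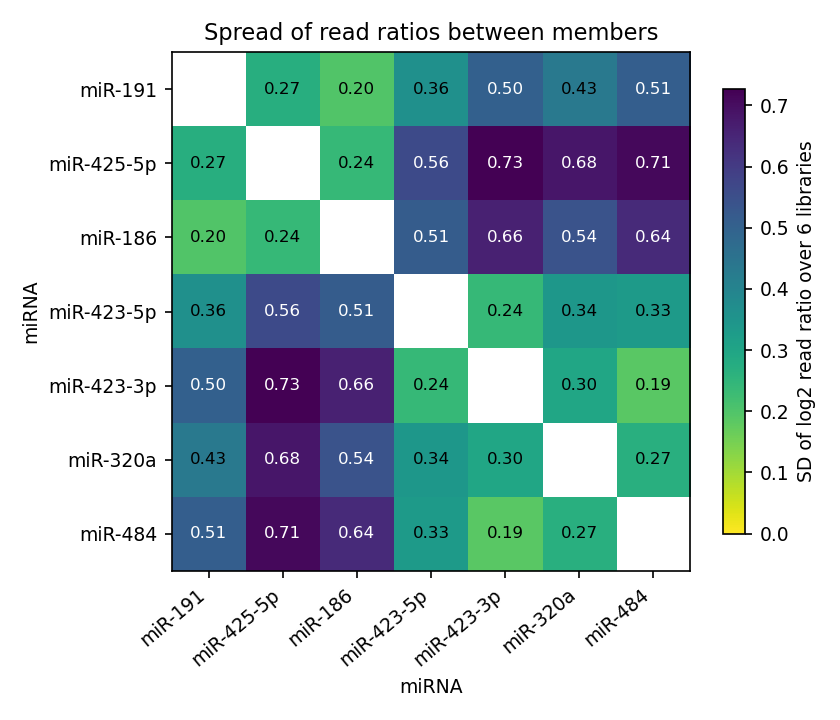
Standard deviation over the 6 libraries of the log2 read ratio for each pair of the 7 members with at least 100 reads, printed in each cell and shaded from light (steady) to dark. The 3 by 3 block of bta-miR-191, bta-miR-425-5p and bta-miR-186 and the block of the other 4 miRNAs stay at or below 0.34, and the cells between them reach 0.73.

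Of the pairs chosen for a comparison between follicle types, 4 could be computed, and 3 libraries against 3 cannot give a p below 0.1. The log2 ratio of bta-miR-423-5p to bta-miR-191 was -3.56 ± 0.13 in preovulatory dominant and -2.97 ± 0.22 in subordinate follicles (SD, n = 3 each), a difference of -0.59 without overlap (two-sided exact permutation test, p = 0.1, adjusted over 4 pairs 0.2). That of bta-miR-186 to bta-miR-191 was -0.30 ± 0.11 against -0.60 ± 0.13, a difference of 0.30, also without overlap (exact permutation p = 0.1, adjusted 0.2). The ratio of bta-miR-425-5p to bta-miR-191 overlapped between the groups, with a difference of 0.33 (exact permutation p = 0.2, adjusted 0.267). So did that of bta-miR-484 to bta-miR-320a, with a difference of -0.27 (exact permutation p = 0.3, adjusted 0.3).

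The arms of the 2 complete duplexes were used unequally. For bta-miR-423 the log2 ratio of 5p to 3p reads, with 1 read added to each, was 0.80, 0.59 and 0.82 in preovulatory dominant libraries, against 0.47, 0.17 and 0.64 in subordinate libraries. The 5p arm had more reads in all 6 libraries, on average 1.50-fold, and the mean ratio was 0.58 ± 0.24 (SD, n = 6; p = 0.031 by two-sided exact sign flips, the smallest value that 6 libraries allow). For bta-miR-425 the ratio was 3.95 ± 0.38 (SD, n = 6; p = 0.031 by the same exact test), or 15.4-fold more 5p reads. Between the follicle types the ratio of bta-miR-423 differed by 0.31 (exact permutation p = 0.2, adjusted over the 2 duplexes 0.4) and that of bta-miR-425 by 0.37 (exact permutation p = 0.4, adjusted 0.4), with overlap in both. These tests treat the 6 libraries as independent, although they come from the same heifers.

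Likeness to other miRNAs was measured as the standard deviation of the log2 read ratio over the 6 libraries, against 102 other miRNAs with at least 100 reads. The miRNAs nearest to bta-miR-191 were bta-miR-27a-3p (0.07), bta-let-7i (0.08) and bta-miR-148b (0.15). Those nearest to bta-miR-186 were bta-miR-30d (0.07), bta-miR-26b (0.09) and bta-miR-103 (0.10). Bta-miR-320a was nearest to bta-miR-574 (0.06), bta-let-7d (0.16) and bta-miR-128 (0.16), and bta-miR-484 to bta-miR-19b (0.09), bta-miR-30c (0.13) and bta-miR-25 (0.15). The smallest of 102 values is low by selection, so these are descriptions over 6 libraries. Counting error of bta-miR-320a and bta-miR-484 alone would give about 0.11 and 0.13, more than the smallest value of each. Bta-miR-27a-3p had a mean of 142 reads, close to the 139 of bta-miR-484. Values below counting error do not show that 2 miRNAs changed together.

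A list of 13 other miRNAs that are often used as references was examined in the same way. All 13 were tested, 1 was called lower and none higher in preovulatory dominant follicles, and the intervals of 7 lay inside the bounds. Of all tested miRNAs, 9.63% were called lower, 11.9% were called higher and 15.0% had intervals inside the bounds. Among the 109 that averaged 100 reads or more, which include 12 of the 13, 26.6% were called and 44.0% had intervals inside. Their median log2 fold change was 0.15, that of the 8 members -0.21 and that of all tested miRNAs -0.20. Over the 109 of higher depth, which include 7 of the 8 members, the median was 0.0011. The most even were bta-let-7a-5p (standard deviation 0.14, 39412 ± 4668 against 35481 ± 1813 CPM), bta-miR-16a (0.17) and bta-miR-26b (0.18). The least even were bta-miR-361 (0.69), bta-miR-30e-5p (0.47) and bta-miR-25 (0.45). Bta-miR-361 fell by 1.19 on the log2 scale (standard error 0.22, edgeR's quasi-likelihood test, adjusted p = 0.00627), from 1307 ± 178 CPM in subordinate to 572 ± 115 CPM in preovulatory dominant follicles (SD, n = 3 each).

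A few other miRNAs made without Drosha were looked up, and those found had few or no reads. Of 5 mirtrons on a fixed list, miRNAs whose hairpin is a spliced intron, 4 names were in the files and 3 had reads. Bta-miR-877 had 4, 4 and 10 reads in preovulatory dominant libraries, against 7, 5 and 5 (log2 fold change 0.25, adjusted p = 0.734). Bta-miR-1224 had 1, 2 and 1 reads against 0, 0 and 0 and was among the calls (adjusted p = 0.0982), at counts under the limit of 3 reads, so no fold is given. Bta-miR-1249 had 1, 1 and 0 reads against 0, 1 and 0.

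Finally, the calls over all 353 miRNAs were recomputed as if members had been the reference, by scaling each library to them before the same edgeR fit. By construction this shifts all fold changes by about the reference's own difference. The balance of calls below thus follows from the members' log2 fold changes given above and is no separate result. With bta-miR-191 alone, 37 miRNAs were called higher and 35 lower in preovulatory dominant follicles, and 71 of these 72 were also among the 76 calls with TMM factors. With bta-miR-186 alone the numbers were 30 and 52, and with bta-miR-425-5p 28 and 48. With members of the other set the balance turned, to 68 higher and 16 lower with bta-miR-423-5p, 64 and 13 with bta-miR-320a, 87 and 11 with bta-miR-484, and 94 and 11 with bta-miR-423-3p. Only 53 of the 105 calls with bta-miR-423-3p were among the 76. The median log2 fold change of all miRNAs moved by -0.38 with bta-miR-425-5p, -0.34 with bta-miR-186, -0.05 with bta-miR-191, 0.50 with bta-miR-423-5p, 0.54 with bta-miR-320a, 0.76 with bta-miR-484 and 0.82 with bta-miR-423-3p.

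The geometric mean of the 7 members lay between these single references. Its log2 CPM was 11.10 ± 0.05 in preovulatory dominant and 11.37 ± 0.15 in subordinate follicles (SD, n = 3 each), 0.26 lower in the former, and its standard deviation over 6 libraries was 0.18, more than the 0.16 of bta-miR-191 alone. By total count the difference was -0.05 and the standard deviation 0.15, less than the 0.24 of bta-miR-191. Scaling to it gave 50 calls higher and 20 lower, with 62 of the 70 among the 76, and moved the median by 0.25.

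**Figure D5:**
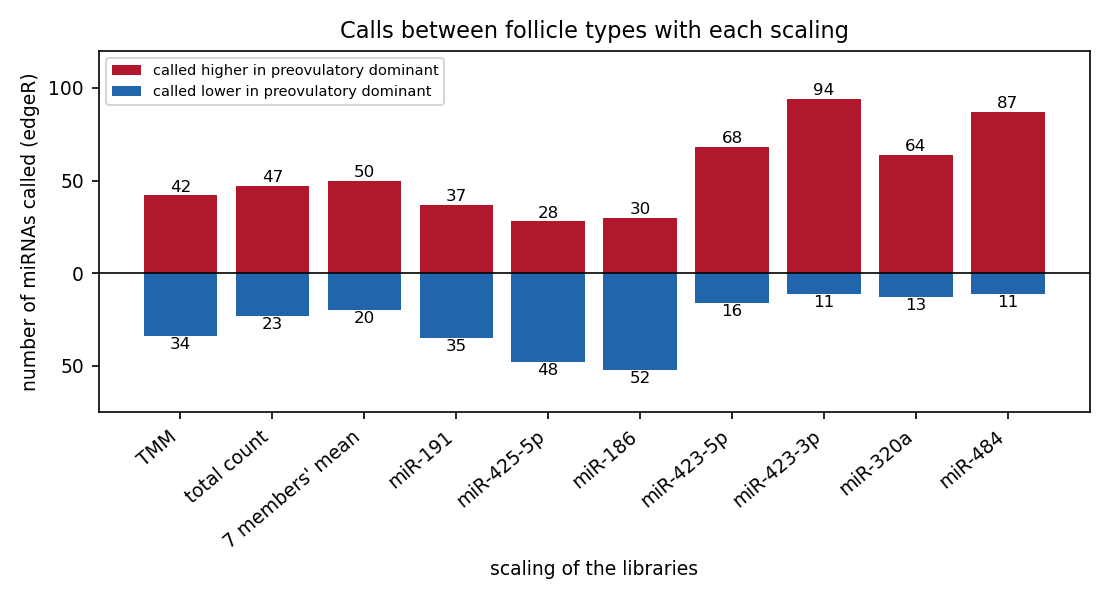
Number of miRNAs called higher (red, upward) and lower (blue, downward) in preovulatory dominant follicles by the same edgeR fit when libraries are scaled by TMM, by total count, to the geometric mean of 7 members or to 1 member alone. TMM gives 42 and 34 and bta-miR-191 gives 37 and 35, while bta-miR-423-3p gives 94 and 11 and bta-miR-186 gives 30 and 52. With members as the reference, the balance follows by construction from their own fold changes.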

How the data were processed

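Small RNA of granulosa cells was sequenced in 3 libraries of preovulatory dominant and 3 of subordinate follicles, grouped by their labels. The deposited values are read counts: per the submitters' notes and methods, the authors called bases with CASAVA 1.8.0, trimmed reads with Cutadapt, mapped them to the bovine genome (UMD3.1) with Bowtie and counted them on known miRNAs with miRDeep2, without normalization. The largest precursor row was used for each mature name. MiRNAs with at least 1 read in at least 2 replicates of a group were tested with edgeR 4.0.16 (R 4.3.3): TMM factors, quasi-likelihood fit on follicle type, Benjamini-Hochberg adjustment. Standard errors were taken from F as the size of the log2 fold change over its root, and the 95% interval uses the fit's t quantile. Log2 CPM used a prior count of 1 and log ratios 1 added read. DESeq2 1.42.0 was an alternative. Other steps used Python 3.11.15 with scipy 1.17.1. The fit was also run on simulated counts with the same relative spread for every miRNA and larger changes than those of the members. That run does not bear on the members' smaller differences. No libraries agreed within counting noise.

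The members and lists were chosen with earlier results of these data known. The rule named all members, the 3 miRNAs most like each of 4 members, the 5 most even others and 2 fixed lists, of which the 3 most and 3 least even references and every mirtron with reads. Replicate numbers are shared by the groups. Deviations from the group means, over 194 miRNAs with at least 10 reads, correlated between same-numbered libraries by 0.14, 0.38 and 0.41. Between differently numbered libraries the values ran from -0.42 to 0.19. The 0.19, of preovulatory dominant replicate 2 with subordinate replicate 1, was above the 0.14 of the libraries numbered 1. Deviations from a group mean cancel out within the group, so positive values for some combinations of libraries bring negative ones for others. The contrast between equal and different numbers is thus partly built in. The labels do not say whether equal numbers share heifers. The numbers were taken as possible pairs only, and a fit with the replicate block was made beside the main one. The planned pair of bta-miR-320b with bta-miR-320a has no value, since bta-miR-320b had no reads.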

Additional observations from a re-analysis of the deposited data

How the results depend on the processing

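With 3 pools per follicle type and 139 to 194 reads on average for bta-miR-484, bta-miR-425-5p and bta-miR-320a, intervals are wide, and depth limits bta-miR-425-3p most. With the replicate block, 71 miRNAs were called in place of 76, 67 of them the same, and the same 3 members passed the false discovery rate, with adjusted p of 0.0188 for bta-miR-423-3p, 0.0789 for bta-miR-423-5p and 0.0506 for bta-miR-484, while 5 in place of 4 members were inside the bounds. Total-count scaling changed the members' order of evenness: it raised the standard deviation of bta-miR-191 from 0.157 to 0.243 and of bta-miR-186 from 0.221 to 0.331 and lowered that of bta-miR-423-5p from 0.306 to 0.234. None of the 52 values of log ratios moved by more than the spread between libraries.

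Without 1 library in turn, the members passing the false discovery rate at any fold numbered 1 to 3 and the members inside the bounds 2 to 4, with the fewest passing without preovulatory dominant replicate 2 or subordinate replicate 1. The log2 fold change of bta-miR-191 then ran from -0.035 to 0.14 and that of bta-miR-425-3p from -0.48 to 0.29. The other reversals came only with scaling to members. Scaled to bta-miR-191, bta-miR-425-3p had -0.0026, and 2 members were inside the bounds. Scaled to the geometric mean of all 8 members with reads, 22 miRNAs were called lower.

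The remaining settings were chosen after seeing the data. Scaled to bta-miR-425-5p, 2 members were called and 2 were inside the bounds, and bta-miR-191 had -0.31, bta-miR-425-3p -0.36 and bta-miR-186 -0.025. Scaled to bta-miR-186, 52 miRNAs were called lower, 2 members were called, 5 passed the false discovery rate and 2 were inside the bounds, and bta-miR-191 had -0.30 and bta-miR-425-3p -0.28. Scaled to bta-miR-423-5p, 68 were called higher and 16 lower, and bta-miR-320a had 0.063. Scaled to bta-miR-423-3p, 94 and 11 were called, with 2 members, and bta-miR-423-5p had 0.30, bta-miR-320a 0.37 and bta-miR-484 0.072. Scaled to bta-miR-320a, 64 and 13 were called and 1 member passed. Scaled to bta-miR-484, 87 and 11 were called, with 2 members, and bta-miR-423-5p had 0.21 and bta-miR-320a 0.28. Scaled to the 7 members with at least 100 reads, 20 were called lower. By construction, such scaling shifts the fold changes by about the difference of the reference itself.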
